A study of Mus musculus with 2 samples.

Results

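Leukocyte microRNA genes, known from white blood cells, were followed in small RNA of the mouse embryonic heart. They are Mir142, Mir155, Mir223, Mir146, Mir150 and Mir146b, 6 of the 1973 gene rows of the count tables. They were chosen by name, by matching stable Ensembl identifiers to GENCODE symbols. Mir155, Mir223, Mir146, Mir150 and Mir146b were read on their own strand. Mir142 has no row of its own in the tables, and its reads were taken from the opposite strand of the row of Mir142b, a gene annotated on the other strand of the same locus. The hearts came from B6NCrl embryos at embryonic day 10.5, sexes mixed, labelled healthy, with no genotype or treatment given. The labels describe 2 biological replicates, each a single library from a pool of hearts, from 69 embryos in replicate 1 and 51 embryos in replicate 2. The design has 1 group, so levels were compared between genes and between the replicate libraries, and the spread between libraries holds the pools and the library preparation together. Whether blood was removed from the hearts is not given in the sources used here.

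MicroRNAs are cut from RNA hairpins, and 1 or both arms of a hairpin become short mature strands that guide repression of messenger RNAs through their seed, bases 2 to 8. Mir142 is transcribed throughout the blood lineages and is widely used as a blood cell marker. Mir223 is the myeloid microRNA of neutrophils and macrophages. Mir155 and Mir146 are induced when immune cells are activated, Mir155 promoting the response and Mir146 damping signalling downstream of Toll-like receptors. Mir150 is a microRNA of mature B and T lymphocytes that acts on the transcription factor Myb. At this age the white cells of the embryo are mainly yolk sac derived macrophages and early progenitors, and lymphocytes have not yet matured.

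The mature sequences are shown because the strand from which the Mir142 reads came and the likeness of miR-146a and miR-146b decide how the counts can be read. They are RefSeq sequences on build GRCm38.p6, written 5′ to 3′ with the seed in capitals.
miR-142a-5p: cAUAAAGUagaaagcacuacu
miR-142a-3p: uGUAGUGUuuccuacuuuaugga
miR-142b: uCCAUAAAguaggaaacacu
miR-155-5p: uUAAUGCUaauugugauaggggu
miR-223-3p: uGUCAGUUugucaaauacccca
miR-146a-5p: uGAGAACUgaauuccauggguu
miR-146b-5p: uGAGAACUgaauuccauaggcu
Of these strands, miR-146a-5p and miR-146b-5p share their seed with each other, and each of the other strands shown had a seed found in no other mouse mature sequence of that table. From position 1 at the 5′ end, miR-146a-5p and miR-146b-5p are identical over the first 17 bases and differ by G18A and U21C (the base of miR-146a-5p first). The Mir146 and Mir146b hairpins share a stretch of 21 bases, the longest that either shares with any other annotated mouse microRNA hairpin. A read short of position 18 would match both genes, and reads mapped to several places were not entered to genes, so the levels of Mir146 and Mir146b are uncertain and may be lower limits. The longest stretch shared with a microRNA gene at another place was 13 bases for Mir142, Mir155 and Mir150 and 12 bases for Mir223.

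The Mir142 locus lies at chr11:87756864-87756927 (mm10, plus strand), in an intron of the non-coding host transcript Mir142hg. Mir142b is annotated across it on the minus strand, at chr11:87756841-87756955, and has 115 bases. The hairpins are shown to make this overlap visible, with the mature strands in capitals.
Mir142 hairpin, plus strand: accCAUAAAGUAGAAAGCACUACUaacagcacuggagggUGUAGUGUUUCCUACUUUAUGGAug
Mir142b hairpin, minus strand: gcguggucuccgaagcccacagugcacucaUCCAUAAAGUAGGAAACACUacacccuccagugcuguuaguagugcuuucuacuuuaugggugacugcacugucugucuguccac
The whole Mir142 hairpin of 64 bases occurs in the reverse complement of the Mir142b hairpin, from base 24 on. All 20 bases of miR-142b are the reverse complement of bases of miR-142a-3p, so at this locus the strand of a read alone separates the 2 products.

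**Figure D1:**
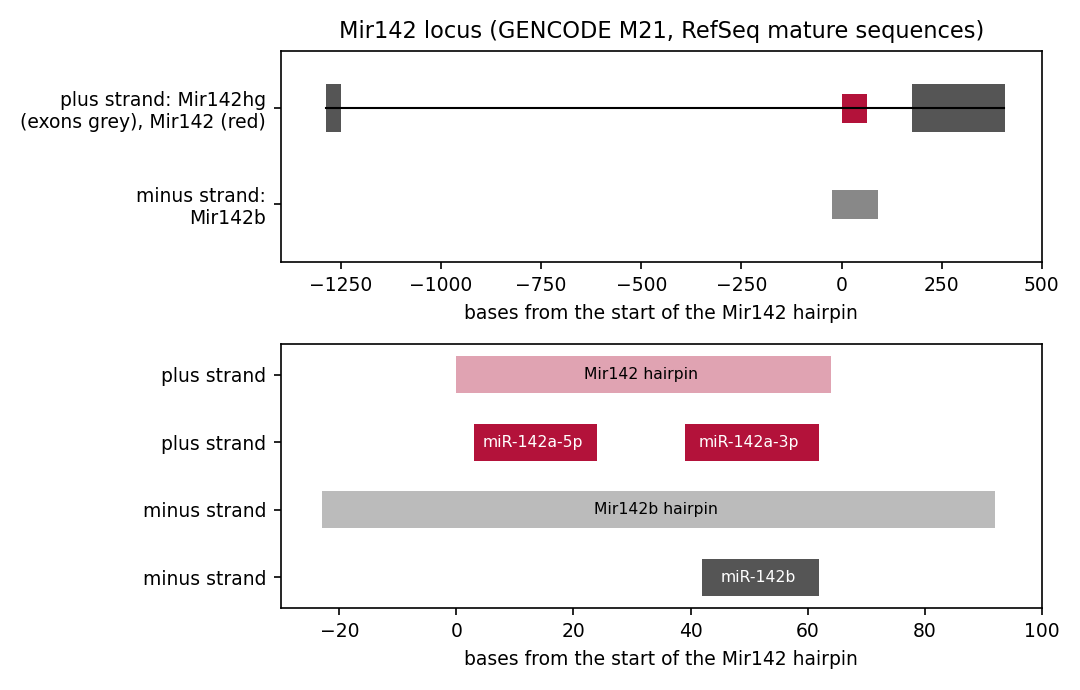
Map of the Mir142 locus on a scale of bases from the start of the Mir142 hairpin, with the host transcript in the upper panel and the hairpins and mature strands in the lower panel. Mir142 lies inside the Mir142hg intron, and the Mir142b hairpin covers it on the other strand.

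Every read counted at the Mir142b row lay on the strand of Mir142. The row held 10687 opposite-strand reads in replicate 1 and 8151 in replicate 2, and 0 reads on its own strand in either library. A count of 0 allows up to 3 reads, or 0.0281% of the reads at the locus in replicate 1 and 0.0368% in replicate 2, so miR-142b itself was not detectable at this depth. The strand was chosen with these counts known, so they are a description. The counts do not divide the reads between miR-142a-5p and miR-142a-3p, since the tables count whole hairpins.

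Reads on the opposite strand were rare at other rows. Of 470 rows with at least 10 reads over both strands in the libraries together, 11 (2.34%) had more opposite-strand than own-strand reads in both libraries. Each of the 11 overlaps a microRNA gene that GENCODE M21 annotates on the other strand and that the count tables do not list. The Mir142b row ranked 4th by opposite-strand reads in replicate 1 and 5th in replicate 2. It held 5.50% and 3.55% of all opposite-strand gene reads there. The rows above it in mean level were Gm25301 opposite Mir378a, Gm24321 opposite Mir409, Gm25252 opposite Mir376a and Gm24083 opposite Mir191. Levels are given in CPM, the reads of a gene per 1000000 own-strand gene reads of its library, and opposite-strand reads were divided by the same totals. Gm24083 and Gm25252, with mean opposite-strand levels of 2169 and 2631 CPM, lay within 1 SD of the Mir142 mean of 2134 CPM. Below that mean, Gm25927 opposite Mirlet7e with 2063 CPM and Mir299b opposite Mir299a with 1899 CPM did so too.

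**Figure D2:**
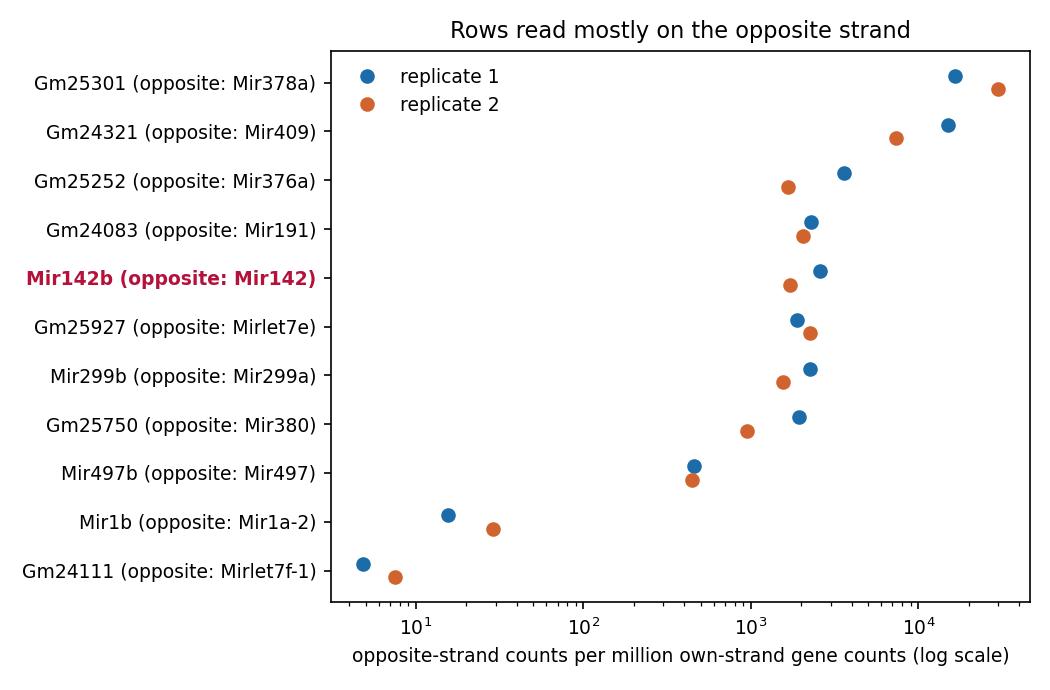
Opposite-strand levels (CPM of own-strand gene counts, log scale) in each library, for the 11 rows read mostly on the opposite strand, each with the unlisted microRNA gene that overlaps it. Mir142b, in bold, stands among 7 other rows whose replicates lie at 952 CPM or above.

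Mir142 was by far the most abundant of the 6 genes. Replicate 1 held 4163656 and replicate 2 held 4789068 own-strand gene reads. Mir142 had 2567 CPM in replicate 1, with an exact 95% interval of 2518 to 2616, and 1702 CPM in replicate 2, with an interval of 1665 to 1739. Both values lay above those of every other gene of the group, and the mean was 2134 ± 611 CPM (SD, n = 2). Set among the own-strand rows, Mir142 would rank 63rd in replicate 1 and 64th in replicate 2. In bulk tissue, few cells of a type and little RNA per cell cannot be told apart.

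Mir155 followed with nearly the same level in both libraries. It lies at chr16:84714140-84714204 (mm10, plus strand) in an exon of its host transcript Mir155hg. It had 890 reads, or 214 CPM, in replicate 1 and 1026 reads, or 214 CPM, in replicate 2, with a mean of 214 ± 0.342 CPM (SD, n = 2). Its exact 95% intervals, 200 to 228 and 201 to 228 CPM, overlap almost wholly. It ranked 178th and 158th of the 1973 own-strand rows.

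Mir223, the myeloid gene, had the largest ratio between the libraries of the 5 genes with at least 10 reads in a library. It lies at chrX:96242817-96242926 (mm10, plus strand) in an exon of the non-coding transcript F630028O10Rik. It had 1000 reads, or 240 CPM, in replicate 1 (interval 226 to 256) and 566 reads, or 118 CPM, in replicate 2 (109 to 128). Replicate 1 was the higher library, 2.03-fold by CPM, and the mean was 179 ± 86.3 CPM (SD, n = 2).

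Mir146, which makes miR-146a, was lower than Mir223 in both libraries. It lies at chr11:43374397-43374461 (mm10, minus strand) in no other gene annotated in GENCODE M21. It had 154 reads, or 37.0 CPM, in replicate 1 (interval 31.4 to 43.3) and 100 reads, or 20.9 CPM, in replicate 2 (17.0 to 25.4), with a mean of 28.9 ± 11.4 CPM (SD, n = 2). Replicate 1 was again the higher library. Its near copy Mir146b lies at chr19:46342762-46342870 (plus strand) in an intron of Mfsd13a. Mir146b had 0 reads in replicate 1, which allows up to 0.721 CPM, and 2 reads in replicate 2, or 0.418 CPM with an interval of 0.0506 to 1.51. These counts do not separate Mir146b from absence of the RNA.

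Mir150, the lymphocyte gene, was the lowest of the 5 genes with at least 10 reads in a library. It ranked 344th in replicate 1 and 318th in replicate 2, where 677 and 682 own-strand rows had reads. It lies at chr7:45121757-45121821 (mm10, plus strand) in no other gene annotated in GENCODE M21. It had 23 reads, or 5.52 CPM, in replicate 1 (interval 3.50 to 8.29) and 31 reads, or 6.47 CPM, in replicate 2 (4.40 to 9.19). The intervals overlap, and the mean was 6.0 ± 0.671 CPM (SD, n = 2). It also had 1 opposite-strand read in each library, the only such reads among the 5 genes read on their own strand.

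**Figure D3:**
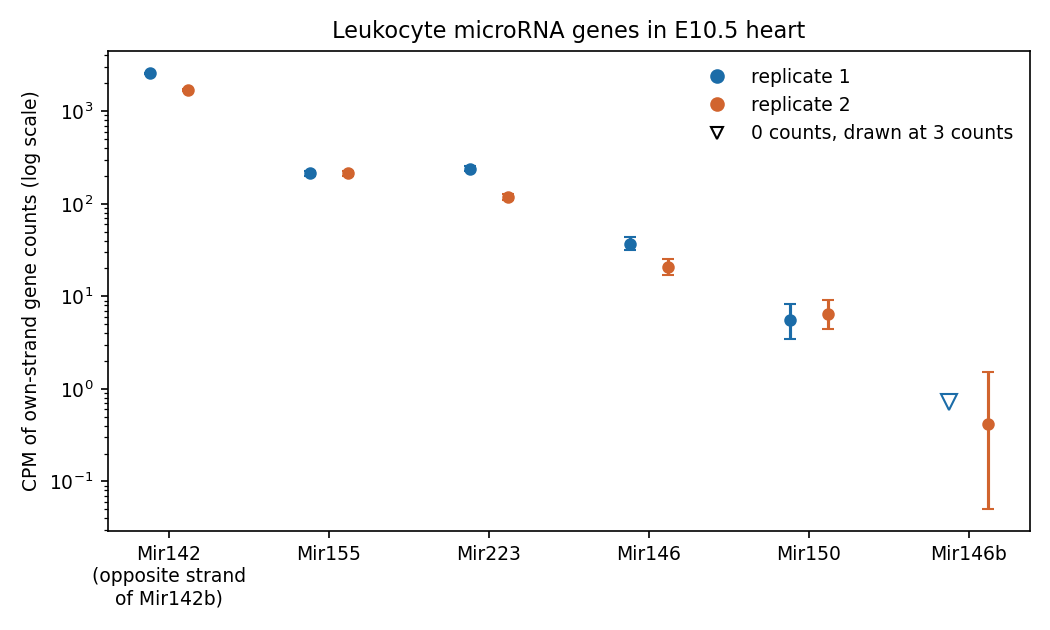
CPM (log scale) of the 6 genes in replicate 1 and replicate 2, with exact 95% intervals that cover counting error only. The levels span from 2567 CPM for Mir142 to 0 reads for Mir146b in replicate 1, drawn as an open triangle at the 3 reads that a count of 0 allows.

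The order of the genes was the same in both libraries except for Mir155 and Mir223. Mir142 exceeded Mir155 12.01-fold in replicate 1, with exact 95% limits of the count ratio of 11.2 and 12.9, and 7.94-fold in replicate 2, with limits of 7.44 and 8.49. Mir155 was 0.890 times Mir223 in replicate 1 (0.812 to 0.975) and 1.81 times Mir223 in replicate 2 (1.63 to 2.01). Each interval excludes 1, on opposite sides, and the log2 ratio of 0.35 ± 0.73 (SD, n = 2) does not order Mir155 and Mir223 beyond the spread between libraries. Mir223 exceeded Mir146 6.49-fold in replicate 1 and 5.66-fold in replicate 2, and Mir146 exceeded Mir150 6.70-fold in replicate 1 and 3.23-fold in replicate 2. Mir150 exceeded Mir146b, on 2 reads, 15.5-fold in replicate 2, with an interval from 3.94 to 134. With 2 libraries the smallest two-sided p of a sign-flip test is 0.5, so the order was not tested over libraries.

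The genes together held a small share of the heart's counted microRNA. The 5 genes on their own strand summed to 496 CPM in replicate 1 and 360 CPM in replicate 2, and with Mir142 the sum was 3063 and 2062 CPM. Of the reads of the 6 genes, Mir142 made up 83.8% in replicate 1, with exact 95% limits of 83.1 and 84.4, and 82.5% in replicate 2, with limits of 81.8 and 83.3. Without Mir142, Mir223 was the largest with 48.4% of the reads in replicate 1, against 43.1% for Mir155. In replicate 2 Mir155 was the largest with 59.5%, against 32.8% for Mir223.

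Set beside genes of other cells, Mir142 was above the red cell gene Mir451a in both libraries and far below the endothelial gene Mir126a. Mir142 exceeded Mir451a 2.71-fold in replicate 1 (2.61 to 2.81) and 1.13-fold in replicate 2 (1.09 to 1.16). The mean log2 ratio of 0.81 ± 0.89 (SD, n = 2) was smaller than its spread, so these levels are not ordered beyond the difference of the libraries. Mir142 was 0.0482 times Mir126a in replicate 1 and 0.0307 times in replicate 2. The heart muscle genes Mir208a, Mir208b and Mir499, which lie in introns of myosin heavy chain genes, were present in both libraries and summed to 34740 CPM in replicate 1 and 69048 CPM in replicate 2. All 3 of these markers of the labelled tissue were thus detected.

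Other microRNA genes known from immune cells spanned a wide range of levels. Of a list of 13, several of which are also expressed in many other tissues, all had reads, 6 had a higher mean than Mir155 and 2 a higher mean than Mir142. Mir23a, of the Mir23a-Mir27a-Mir24-2 cluster, was the highest with 15395 ± 3931 CPM, followed by Mir342, which lies within Evl, with 6972 ± 480 CPM and Mir181b-2 with 963 ± 95.1 CPM (SD, n = 2). Mir511, which lies within the macrophage receptor gene Mrc1, had 4 reads in replicate 1 and 3 in replicate 2. Mir147, induced in activated macrophages, had 25 reads in replicate 1 and 15 in replicate 2. Of the 13, 7 share a stretch of at least 20 bases with another microRNA gene, Mir23a and Mir181b-2 among them, and their counts may be lower limits.

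Own-strand rows outside the group were searched for levels like those of Mir142, Mir155 and Mir223. Likeness was the distance of log2(CPM + 1) over the 2 libraries, and opposite-strand reads of other rows were not searched. The nearest to Mir142 were Mir181c, with 2372 CPM in replicate 1 and 1635 CPM in replicate 2, then Mir324 and Mir337. Mir598 with 223 and 208 CPM was nearest to Mir155, followed by Mir101a and Mir5099. Mir673 with 254 and 128 CPM, Mir377 with 263 and 111 CPM and Mir496a with 202 and 109 CPM were nearest to Mir223. This likeness rests on 2 values per gene and is a description.

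Of the group, 4 genes differed between the replicate libraries beyond counting error. The test was an exact two-sided binomial test with TMM scaling and Benjamini-Hochberg adjustment over the 425 rows that reached 10 reads in at least 1 library. It compares these libraries and not conditions. Mir142, Mir223 and Mir146 were higher in replicate 1 and Mir155 was lower, Mir150 did not pass, and Mir146b had too few reads to enter. Of the 5 tested genes 4 passed, against 61.2% of all tested rows. Higher in replicate 1 were 3 of the 5, against 31.3% of all tested rows, and lower was 1 of the 5, against 29.9%. Passing the test was therefore common in these libraries and not a mark of the leukocyte genes.

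The log2 ratio of replicate 1 over replicate 2 was 0.33 for Mir142 (exact 95% interval 0.29 to 0.37; exact binomial adjusted p = 3.30e-54) on the TMM scale. For Mir223 it was 0.76 (0.61 to 0.91; exact binomial adjusted p = 7.81e-24). Mir146 had 0.56 (0.19 to 0.94; exact binomial adjusted p = 0.00484). Mir155 had -0.27 (-0.40 to -0.14; exact binomial adjusted p = 0.000126). Mir150 had -0.48 (-1.34 to 0.33; exact binomial adjusted p = 0.297). These p-values speak to counting error and not to the spread between hearts. Among all tested rows the median distance from 0 was 0.47, and 26.4% of rows lay as far from 0 as Mir223 or farther, and 61.9% as far as Mir142. The median distance from 0 of the 5 genes was 0.48. Their median with sign was 0.33, and that of all tested rows 0.03. Scaled by total own-strand counts, these medians with sign were 0.59 and 0.29.

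The call for Mir155 rested on the scaling. TMM and total counts differ here by 0.26 on the log2 scale for every gene. Scaled by total own-strand counts, Mir155 stood at -0.003 and did not pass (exact binomial adjusted p = 0.987), while Mir142 at 0.59, Mir223 at 1.02 and Mir146 at 0.82 stayed higher in replicate 1. Over all tested rows, TMM gave 133 rows higher and 127 lower in replicate 1, and total counts gave 197 higher and 66 lower.

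**Figure D4:**
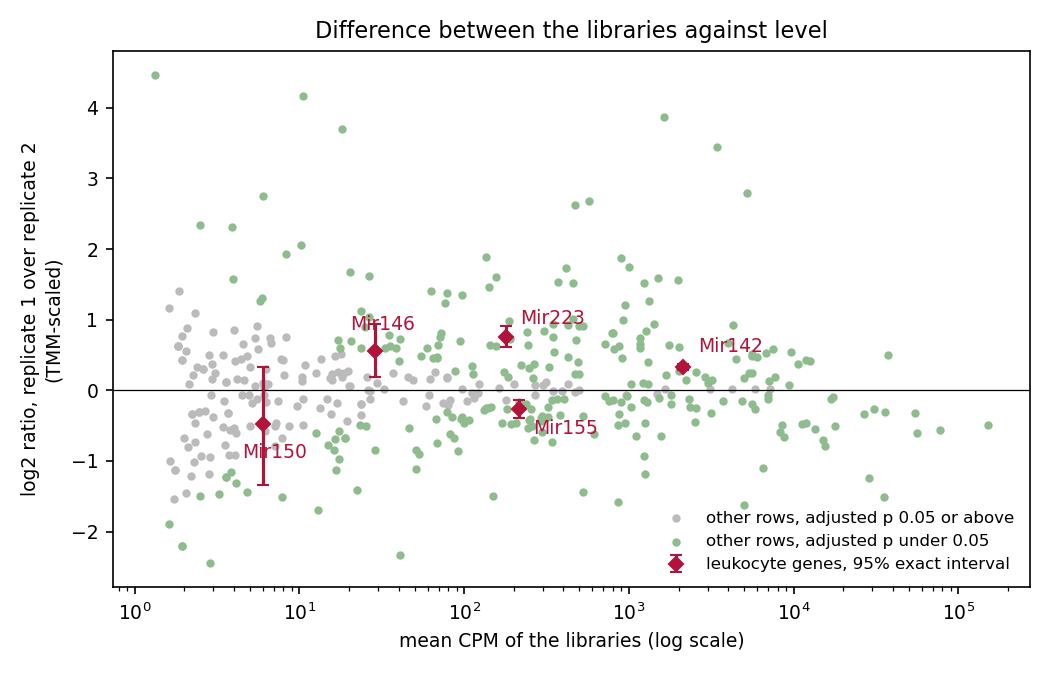
Log2 ratio of replicate 1 over replicate 2 (TMM-scaled) against mean CPM (log scale) for the 425 tested rows, with Mir142, Mir155, Mir223, Mir146 and Mir150 as red diamonds with exact 95% intervals. The 5 genes lie between -0.48 and 0.76, within the cloud of the other rows.

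Markers of other tissues also differed between the libraries, in part more than the leukocyte genes. The Hox-cluster list, known from trunk tissue, had reads for all 6 genes and summed to 17890 CPM in replicate 1 and 2051 CPM in replicate 2. Mir10a, its highest gene, had 9250 CPM in replicate 1 and 1114 CPM in replicate 2, Mir10b and Mir196b came next, and all 5 tested genes were higher in replicate 1. The epithelial list, 6 genes of the Mir200 families and Mir205, summed to 6477 CPM in replicate 1 and 1831 CPM in replicate 2, and all 6 were higher in replicate 1, led in level by Mir429, Mir200c and Mir205. All 5 genes of the liver list had reads, with 4205 CPM in replicate 1 and 1191 CPM in replicate 2. Its defining gene Mir122 had 3078 CPM in replicate 1 and 175 CPM in replicate 2, and Mir192 and Mir194-2 were also higher in replicate 1, while Mir148a and Mir194-1 of that list were lower. Mir194-1 and Mir194-2 share 22 bases, so their counts are uncertain. In the Hox-cluster list, Mir196a-2 shares 22 bases with another gene of that list, so its count is uncertain too. These calls were the same with TMM, DESeq2 size factors (1 in both libraries, so unscaled counts) and total counts. No gene of these 3 lists was at 0 in both libraries. Their part in the higher Mir142, Mir223 and Mir146 of replicate 1 was not tested.

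The red cell, heart muscle and other immune-linked lists and the endothelial gene Mir126a had lower summed CPM in replicate 1 than in replicate 2. Mir126a had 53306 CPM in replicate 1 and 55504 CPM in replicate 2. It was called lower in replicate 1 with TMM (log2 ratio -0.32), DESeq2 size factors and total counts. The other immune-linked list summed to 22682 CPM in replicate 1 and 27345 CPM in replicate 2. This direction rests on Mir23a, with 12616 CPM in replicate 1 and 18175 CPM in replicate 2. The summed CPM of the remaining genes of that list was higher in replicate 1. Red cell genes summed to 1160 CPM in replicate 1 and 1713 CPM in replicate 2, with Mir451a lower in replicate 1 at a log2 ratio of -0.93 and Mir486 at -0.38, while Mir144 at -0.04 did not pass. With total counts as the scaling Mir486 did not pass and Mir144 was higher in replicate 1, so the direction of the red cell list rests on Mir451a. All 3 heart muscle genes were lower in replicate 1, with TMM, DESeq2 size factors and total counts. Of the 12 tested genes of the other immune-linked list, 0 were higher and 5 lower in replicate 1 by the exact binomial test with TMM scaling, namely Mir342, Mir181a-1, Mir23a, Mir27a and Mir24-2. At an unadjusted p under 0.05 the counts were also 0 and 5, and with DESeq2 size factors 0 were higher and 4 lower. With total counts 5 were higher and 2 lower, with Mir342 and Mir181a-1 changing sides. The calls of this list thus have no direction that holds under both scalings.

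**Figure D5:**
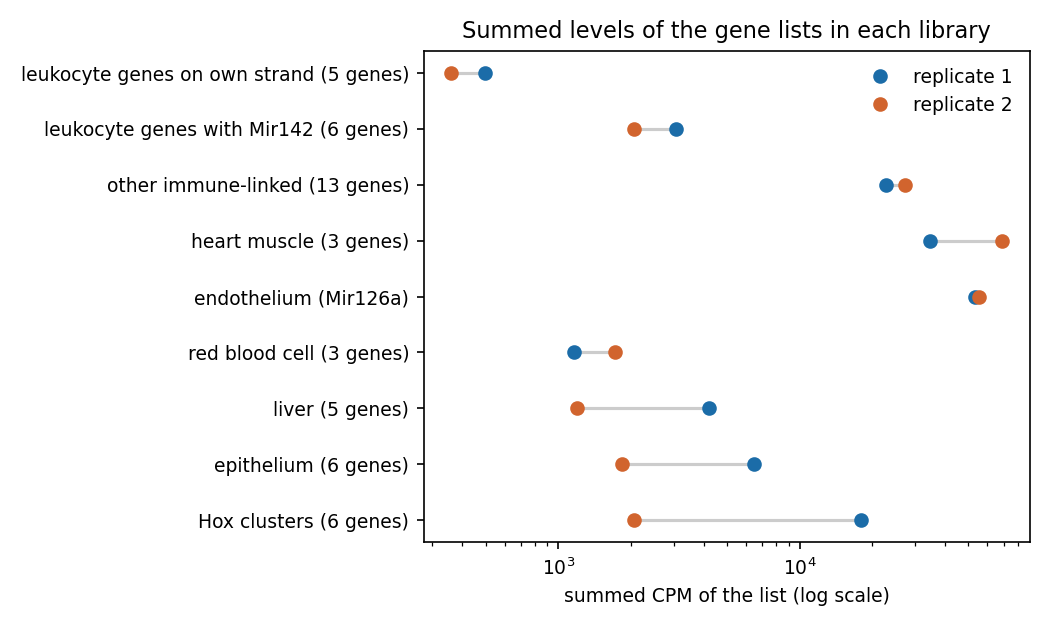
Summed CPM (log scale) of each gene list in replicate 1 and replicate 2. The leukocyte genes with Mir142 had 3063 CPM in replicate 1 and 2062 CPM in replicate 2, a narrower gap than that of the Hox-cluster, epithelial and liver lists. The heart muscle, red cell and other immune-linked lists and Mir126a lay the other way. For the red cell list this rests on Mir451a, and for the other immune-linked list on Mir23a.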

How the data were processed

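The authors deposited, for each library, a table of unnormalized read counts per microRNA gene over both strands, on the gene's own strand and on the opposite strand. Counts came from 1 alignment file per library on assembly mm10 with GENCODE M4, per the README files deposited with them. How reads were trimmed, aligned and counted was not stated in the labels or those files. Which column holds which strand was read from the values. The table rows for reads without a gene were used in neither totals nor tests. Of 10042860 reads in replicate 1 they took 26.3% (unmapped), 23.3% (multimapping) and, for the own-strand column, 8.98% (not on the strand of a listed gene, a share that includes the opposite-strand reads at listed genes, among them those taken for Mir142), and of 10996991 reads in replicate 2 they took 25.5%, 23.5% and 7.41%.

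Symbols and positions came from GENCODE M21 on the same assembly (1894 of 1973 identifiers matched). TMM factors (edgeR 4.0.16) were 1.10 and 0.913. Exact binomial tests and Clopper-Pearson intervals were made with scipy 1.17.1. The tests were checked on simulated counts with counting error but no spread between libraries. That check does not bear on such spread. Log2 ratios had a prior count of 0.5, and the adjusted p threshold was 0.05. The counts are of reads and are not known to be of single molecules, so the intervals and the limits behind a count of 0 describe counting error alone. Genes named are the 6 members, the highest genes of each list, list genes that passed in counts of 5 or fewer, the 3 nearest in level to Mir142, Mir155 and Mir223, and rows above Mir142b on the opposite strand. Mir511, Mir147, Gm25927 and Mir299b were named after their values were seen. The genes and lists were chosen with earlier results of these data known. Alternatives were DESeq2 1.42.0 size factors or total counts, no filter on low counts, counts over both strands, other totals, other prior counts and each library alone. The DESeq2 size factors came to 1 in both libraries, so that setting compared the counts unscaled.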

Additional observations from a re-analysis of the deposited data

How the results depend on the processing

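The levels changed little with the total behind them. The own-strand sum of 428 CPM ranged from 409 CPM, with gene counts over both strands as the total, to 504 CPM, without the most abundant gene, and from 360 to 496 CPM leaving out each replicate in turn. Mir142, at 2134 CPM, ranged from 2038 to 2508 CPM, and from 1702 to 2567 CPM leaving out each replicate. The log2 ratio of Mir142 over Mir155 was 3.29, and 2.99 to 3.59 leaving out each replicate. All 21 alternatives tried for these levels, this ratio and the count of genes that differed between libraries kept within the replicate spread or within 1.5 times the count. That count was 4, and 3 with total counts as the scaling, where Mir155 no longer passed. The other 29 values of single genes kept direction and call. Some of these alternatives could not have come out otherwise. With 2 libraries, leaving out 1 cannot move a mean beyond the replicate SD. The prior count enters the log2 ratios and not the p-values, so it cannot change a call. Counts over both strands left the level of Mir142 and its ratio to Mir155 as they were, since their other strand held 0 reads. No paired analysis was possible because the design has 1 group. The limits of depth bear on Mir150 and Mir146b, and a replicate left out leaves no test between libraries.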
